A study of Mus musculus with 4 samples.

Results

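Interferon-stimulated genes (ISGs) were read across the cell classes of the small intestinal lamina propria of WT and A20ZF7 mice. The members are a list of 39 genes given by name, of which 38 were matched by gene ID among the 31,950 gene IDs that both gene expression libraries list. Mx1 was matched in the WT gene list alone, where it had 27 UMIs, or 1.78 counts per 1,000,000 UMIs (CPM), in the gated cells, and it was not compared. A20ZF7 mice are homozygous knock-in animals with point mutations in zinc finger 7 of A20 (Tnfaip3), which abolish its binding of M1-linked ubiquitin, and WT mice carry unmutated A20. Each genotype is 1 gene expression library from 2 pooled mice at 12 weeks of age, from 60,000 collected cells that had been enriched for T cells and innate lymphoid cells (ILCs) by negative selection. The mutation changes codons and not the amount of transcript by design, so the level of Tnfaip3 is no check of the labels.

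Interferons reach cells through several receptor routes, of which 2 are described here. Type I interferons signal through Ifnar1 and Ifnar2 to a complex that holds Stat2 and Irf9 and binds the interferon-stimulated response element (ISRE). Interferon-γ signals through Ifngr1 and Ifngr2 to the γ-activated site (GAS) of promoters and induces the transcription factor Irf1. The members hold sensors of viral nucleic acid, the transcription factors that drive the response, and effectors such as the Ifit proteins and oligoadenylate synthetases. They also hold the interferon-inducible GTPases, namely the guanylate-binding proteins (GBPs) and the immunity-related GTPases (IRGs), which attack the vacuoles of intracellular pathogens and respond strongly to interferon-γ. In the gut these genes have a resting level that depends on the microbiota.

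The promoters below are shown because the response to each route is read through such elements. They are examples with both elements (Igtp, Irgm2 and Gbp7), with a GAS alone (Irf1) and with ISRE cores alone (Isg15 and Ifit1). They are from RefSeq (build GRCm38.p6), run from 250 bases before the start of the gene to 50 bases from it, and are written 5′ to 3′ on the strand of the gene. Promoters of 29 members were matched, and none was matched for Mx1, Gbp4, Ifi27l2a, Rtp4, Zbp1, Iigp1, Dhx58, Oas2, Parp14 and Usp18. Capitals mark each match to the ISRE core GAAANNGAAA on either strand (TTTCNNTTTC on the other) and to GAS TTCNNNGAA, which reads alike on both strands.
Igtp, chr11:58199306-58199605, plus strand: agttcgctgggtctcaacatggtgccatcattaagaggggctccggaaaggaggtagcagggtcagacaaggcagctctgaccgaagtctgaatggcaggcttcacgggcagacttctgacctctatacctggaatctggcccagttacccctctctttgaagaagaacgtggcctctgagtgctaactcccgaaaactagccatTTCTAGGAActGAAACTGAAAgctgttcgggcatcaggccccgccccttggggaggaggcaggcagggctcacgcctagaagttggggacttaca
Irgm2, chr11:58214727-58215026, plus strand: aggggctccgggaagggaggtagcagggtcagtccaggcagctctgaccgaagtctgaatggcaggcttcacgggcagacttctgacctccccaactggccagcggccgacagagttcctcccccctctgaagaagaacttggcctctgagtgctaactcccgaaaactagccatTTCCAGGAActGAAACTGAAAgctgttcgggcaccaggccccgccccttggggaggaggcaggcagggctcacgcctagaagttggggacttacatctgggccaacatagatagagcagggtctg
Gbp7, chr3:142530086-142530385, plus strand: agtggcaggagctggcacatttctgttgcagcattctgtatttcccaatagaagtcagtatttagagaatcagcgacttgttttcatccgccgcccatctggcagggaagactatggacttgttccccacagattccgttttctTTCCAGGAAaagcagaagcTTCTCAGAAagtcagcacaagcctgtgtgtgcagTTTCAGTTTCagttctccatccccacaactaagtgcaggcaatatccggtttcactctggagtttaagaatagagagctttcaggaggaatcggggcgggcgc
Irf1, chr11:53769764-53770063, plus strand: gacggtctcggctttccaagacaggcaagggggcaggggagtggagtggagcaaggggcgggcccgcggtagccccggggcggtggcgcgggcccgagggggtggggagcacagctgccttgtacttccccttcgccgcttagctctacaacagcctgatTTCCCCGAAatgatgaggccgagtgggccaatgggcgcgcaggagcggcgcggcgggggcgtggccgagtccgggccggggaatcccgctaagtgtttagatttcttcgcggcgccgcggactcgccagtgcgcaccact
Isg15, chr4:156200769-156201068, minus strand: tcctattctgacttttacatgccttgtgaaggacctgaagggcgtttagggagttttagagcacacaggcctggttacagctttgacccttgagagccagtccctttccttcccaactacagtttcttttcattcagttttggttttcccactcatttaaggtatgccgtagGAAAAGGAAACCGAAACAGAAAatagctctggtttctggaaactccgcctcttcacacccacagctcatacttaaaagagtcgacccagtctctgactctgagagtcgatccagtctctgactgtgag
Ifit1, chr19:34640639-34640938, plus strand: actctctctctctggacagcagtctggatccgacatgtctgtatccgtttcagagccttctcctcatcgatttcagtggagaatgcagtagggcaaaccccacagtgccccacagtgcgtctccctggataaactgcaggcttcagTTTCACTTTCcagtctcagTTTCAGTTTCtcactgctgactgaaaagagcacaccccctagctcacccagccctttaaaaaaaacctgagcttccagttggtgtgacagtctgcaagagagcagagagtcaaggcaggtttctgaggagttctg

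An ISRE core was found in 18 of 29 member promoters (62.1%), against 3.49% of 27,025 promoters, 1 for each gene. GAS was found in 9 of 29 (31.0%), against 8.47%. Both were found in 6 promoters (20.7%, against 0.514%), those of Bst2, Gbp5, Gbp7, Igtp, Irgm2 and Oas1a. In Igtp and Irgm2, neighbouring genes on chromosome 11, the GAS ends 2 bases before the ISRE core, and their promoters share an identical run of 61 bases. In Bst2 the ISRE cores and the GAS overlap each other, and in Isg15 the capitals join 3 overlapping ISRE cores. Irf1 has a GAS alone, and Isg15 and Ifit1 have ISRE cores alone. A match describes the letters of these windows and is no evidence of binding.

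Cells were gated by marker genes, with at least 2 markers of 1 lineage and of no other, and a class name with "-like" rests on these markers. Of 19,721 WT and 38,248 A20ZF7 cells that passed the filters (medians of 883 and 960 UMIs), 13,553 and 23,343 took a class, and 2500 (12.7%) and 9061 (23.7%) had markers of several lineages and were left out. T cells numbered 4024 and 12,263, ILCs 1489 and 1440, and fibroblast-like cells, which carry collagens and Dcn, 5173 and 7620. Smooth muscle-like cells numbered 1777 and 770, endothelial-like cells 292 and 312, macrophage-like cells 122 and 295 and B or plasma-like cells 339 and 535. The fibroblast list summed to 19,585 CPM in WT fibroblast-like cells and 15,787 CPM in those of A20ZF7. In ILC2-like cells of A20ZF7 the list for ILC1 or NK cells (6878 CPM, of which the granzyme gene Gzma 6865 CPM) exceeded their own (4687 CPM), and ILC subsets are therefore mainly described together. The libraries shared 1051 cell barcodes. Levels in CPM are the summed UMIs of a class over all its UMIs of the shared gene IDs, and parentheses give 95% intervals for counting error alone. With 1 library per genotype there is no test between genotypes, and genotype cannot be told apart from library, from the pool of mice or from the gene list against which each library was counted. Within WT, cells called for hashtag 7 or hashtag 8 belong to different mice and give the spread between 2 animals in the called cells. The calls cover 7015 and 3704 WT cells, and 9002 had none. Of the 5173 WT fibroblast-like cells, 1148 and 438 were called. Called cells can differ from WT as a whole, as in the fibroblast-like GBPs and IRGs (619 and 617 CPM in the mice, 564 CPM in WT).

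Transcripts of other cell types within a class differed between the libraries. T cell markers summed to 127 CPM in WT and 401 CPM in A20ZF7 fibroblast-like cells, which is 3.01% and 10.1% of their sum in the T cells of the same library. Igha, the heavy chain of IgA that plasma cells make, was 608 CPM in WT and 1419 CPM in A20ZF7 fibroblast-like cells, and 733 and 1365 CPM in T cells. Droplets with under 50 UMIs held the 38 members at 1728 CPM in WT and at 2291 CPM in A20ZF7. Igha was 8010 CPM in WT and 5089 CPM in A20ZF7 droplets. Adamdec1, a fibroblast gene outside the gating lists, was 550.1 and 721 CPM in the droplets and 34.8 and 54.9 CPM in T cells. By Adamdec1 the droplet part of T cell profiles was smaller, and nearer alike in the libraries, than by immunoglobulin transcripts. The droplet parts subtracted below rest on immunoglobulin transcripts, and the subtracted values depend on that choice. Free RNA and doublets, of which those with both hashtags were removed in WT alone, cannot be told apart in these values. Where stated, the droplet or the T cell profile was subtracted, and levels were still taken over the UMIs before subtraction. The part subtracted was larger in A20ZF7, so ratios after subtraction are lower on this scale than over the UMIs left.

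The summed level of the members was highest in endothelial-like and fibroblast-like cells. In WT it was 4996 CPM (4753 to 5248) in endothelial-like and 4172 CPM (4119 to 4226) in fibroblast-like cells. In A20ZF7 it was 5268 CPM (5008 to 5538) and 5809 CPM (5754 to 5864), so the order of these classes differed between the libraries. The levels in T cells were 2040 CPM in WT and 2276 CPM in A20ZF7, and those in ILCs 1545 and 2030 CPM. Macrophage-like cells had 2994 and 2871 CPM, smooth muscle-like cells 1610 and 2653 CPM and B or plasma-like cells 1060 and 1406 CPM. Between T cells and ILCs of A20ZF7 (2251 to 2302 and 1948 to 2115 CPM) the intervals did not overlap, and macrophage-like cells of both libraries (2707 to 3304 and 2677 to 3075 CPM) lay above them.

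Fibroblast-like cells owed much of their sum to Ifi27l2a, a short interferon-induced protein, at 2399 CPM in WT and 3122 CPM in A20ZF7. Without this gene they held 1773 CPM in WT and 2687 CPM in A20ZF7, and endothelial-like cells held 4797 and 4905 CPM. Of the 38 members, 21 had their highest level over the cell classes in endothelial-like cells of WT and 19 in those of A20ZF7, with 14 in both. Iigp1 (865 and 946 CPM), Irf1 (940.4 and 651 CPM) and Bst2 (445 and 469.6 CPM) were among the 14. No such count over all genes is set beside these, so they do not show that the members differ from other genes here. Ifi27l2a was highest in fibroblast-like cells of both libraries, and Rsad2 and Gbp3 in macrophage-like cells. Highest levels in the smallest classes can rest on few UMIs, as those of Oasl1 in WT macrophage-like cells (6 UMIs, 16.6 to 98.7 CPM) and of Zbp1 in WT ILC1 or NK-like cells (3 UMIs, 12.2 to 173 CPM).

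**Figure D1:**
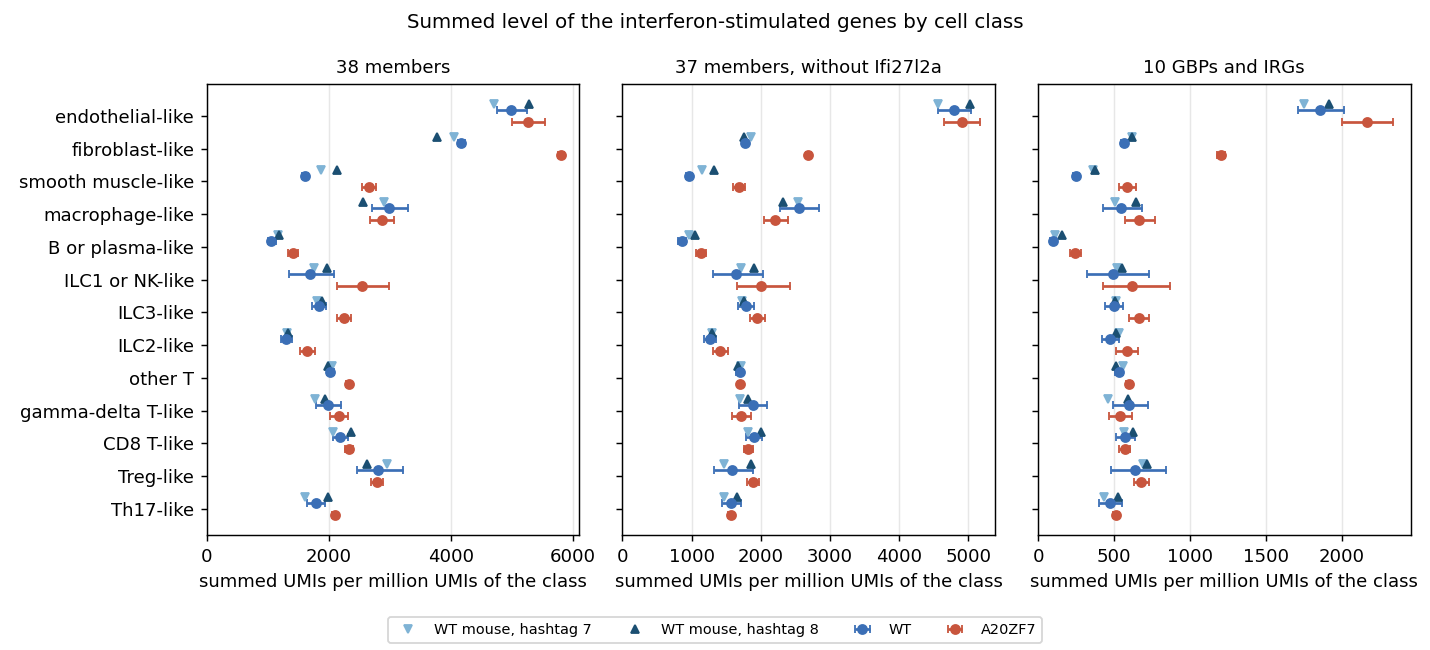
Summed level of the members (x axes, CPM) in each cell class (y axis) for all 38 members, for the members without Ifi27l2a and for the 10 GBPs and IRGs. Circles are the WT and A20ZF7 libraries with 95% counting intervals and triangles are the WT mice called by hashtag. A20ZF7 fibroblast-like cells lie to the right of WT and of both WT mice in each panel. In the middle panel the ratios of A20ZF7 over WT in the T cell classes run from 0.913 in gamma-delta T-like to 1.19 in Treg-like cells.

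In fibroblast-like cells most members were higher in A20ZF7 than in WT. The summed level was 1.39 times higher in A20ZF7 than in WT (1.37 to 1.41), and 1.52 times higher without Ifi27l2a (1.48 to 1.55). The WT mouse with hashtag 7 had 4054 CPM and the mouse with hashtag 8 had 3778 CPM, both below the 5809 CPM of A20ZF7. All 38 members passed the filter of 10 expected UMIs. Their ratio of A20ZF7 over WT was above 1 for 35 members and below 1 for Rtp4, Ifih1 and Xaf1, and its median was 1.38, against a median of 0.963 and a share above 1 of 43.8% over the 13,183 genes that passed. A ratio of at least 2 was found for 7 members, where 7.33% of all genes passed this limit, and no member had a ratio of 0.5 or less, against 3.51% of all genes. Between the WT mice none of the 29 members that passed reached 2-fold in either direction in these cells, where 0.99% and 0.682% of 7775 genes did. The ratios of hashtag 8 over hashtag 7 ran from 0.585 for Ifit3 to 1.54 for Gbp7. The 29 leave out Ifit2, and also Ifi44, Rsad2 and Oas3, which were among the 7 between genotypes. These had few UMIs in the mice, as Rsad2 with 6 for hashtag 7 and 1 for hashtag 8, so the 2 counts cover different members.

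The IRGs, large interferon-inducible GTPases that act on the membrane of pathogen vacuoles, differed most as a group in fibroblast-like cells. They summed to 353 CPM in WT and 879 CPM in A20ZF7, a ratio of 2.49 (2.37 to 2.62). Iigp1 was 148 CPM in the WT mouse with hashtag 7, 156 CPM in that with hashtag 8, 139 CPM in WT as a whole and 460.2 CPM in A20ZF7, a ratio of 3.31 (3.06 to 3.59). Igtp was 40.4, 31.8, 33 and 89.6 CPM in the same order, a ratio of 2.72 (2.3 to 3.22). A20ZF7 thus stood above both WT mice for these genes, and the mice lay close to each other. Ifi47 was 69.8, 74.2, 58.4 and 128 CPM (ratio 2.18, 1.92 to 2.48), and Irgm2, a regulator of the other IRGs, was 88.2, 72.5, 78.3 and 138 CPM (ratio 1.76, 1.57 to 1.97). Irgm1, which also restrains other IRGs, was 45.6, 51.2, 44.6 and 64.3 CPM (ratio 1.44, 1.23 to 1.69). Exons of Igtp and Irgm2 overlap on the same strand in the GENCODE vM21 annotation, as do those of Ifi47 and Olfr56, so the split of reads between these genes is uncertain.

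The GBPs, which coat such vacuoles and bacteria in the cytosol, summed to 211 CPM in WT and 324 CPM in A20ZF7 fibroblast-like cells (ratio 1.54, 1.43 to 1.65). Gbp4 was 24.2 CPM with hashtag 7, 17.7 CPM with hashtag 8, 17.2 CPM in WT and 41.4 CPM in A20ZF7, a ratio of 2.41 (1.91 to 3.06). Gbp4 shares exon positions with Gbp8 and Gbp9, near copies of it, and its counts are uncertain to that extent. Gbp5 was 16.2, 21.2, 16 and 31 CPM (ratio 1.94, 1.51 to 2.51), and Gbp7 was 47, 72.5, 53.4 and 90.2 CPM (ratio 1.69, 1.47 to 1.94). Gbp3 was 26.5, 23, 26.2 and 35.8 CPM (ratio 1.37, 1.12 to 1.69) and Gbp2 was 113, 97.2, 97.9 and 125 CPM (ratio 1.28, 1.15 to 1.43). All 5 were higher in A20ZF7 than in either WT mouse. The 10 GBPs and IRGs together were 2.13 times higher in A20ZF7 (2.05 to 2.22), from 564 to 1203 CPM, with 619 and 617 CPM in the WT mice.

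The Ifit proteins, which bind foreign RNA, differed little in fibroblast-like cells. They summed to 57.9 CPM in WT and 64 CPM in A20ZF7, a ratio of 1.11 (0.957 to 1.28). Ifit1 was 23.5 CPM with hashtag 7, 14.1 CPM with hashtag 8, 24 CPM in WT and 27.2 CPM in A20ZF7, Ifit2 was 11.8, 5.3, 11.1 and 12.2 CPM, and Ifit3 was 27.2, 15.9, 22.8 and 24.6 CPM. The levels with hashtags 7 and 8 differed more from each other in each of the 3 genes than the libraries did. They rest on 32 and 8 UMIs of Ifit1, 16 and 3 of Ifit2 and 37 and 9 of Ifit3. Counting error is thus not set apart from a spread between the animals. Isg15, a ubiquitin-like modifier, was 72, 45.9, 70.4 and 107 CPM (ratio 1.52, 1.35 to 1.73), while Usp18, the protease that removes it and dampens Ifnar signalling, was 8.08, 12.4, 11.3 and 12.9 CPM (ratio 1.14, 0.819 to 1.59).

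Oligoadenylate synthetases make the signal that activates RNase L, and the Oasl genes are relatives of them. They summed to 72.4 CPM in WT and 89.4 CPM in A20ZF7 fibroblast-like cells (ratio 1.23, 1.09 to 1.4). Oas1a was 11.8 CPM with hashtag 7, 10.6 CPM with hashtag 8, 14 CPM in WT and 24.1 CPM in A20ZF7 (ratio 1.72, 1.31 to 2.28). Oas3 had a ratio of 3.02 (1.2 to 9.03) that rests on 6 UMIs in WT and 24 in A20ZF7. Of the others, Oas2 was 5.38 CPM in WT and 6.22 CPM in A20ZF7, Oasl2 had a ratio of 1.05 on 279 UMIs in WT, and Oasl1 was 1.97 and 3.38 CPM.

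Sensors differed little apart from Zbp1, a sensor of Z-form nucleic acid that can start necroptosis. Zbp1 was 29.4 CPM with hashtag 7, 17.7 CPM with hashtag 8, 25.3 CPM in WT and 48.3 CPM in A20ZF7 fibroblast-like cells (ratio 1.91, 1.57 to 2.34). The RNA sensors Ddx58 (RIG-I) and Ifih1 (MDA5) were 42.8 and 48.9 CPM in WT and 51.4 and 46.9 CPM in A20ZF7, and Dhx58 (LGP2) was 2.69 and 3.92 CPM. Among the transcription factors, Irf1 was 145, 161, 122 and 169 CPM (ratio 1.38, 1.26 to 1.52) in the order of the mice, WT and A20ZF7, so the 2 WT mice lay nearer to A20ZF7 than WT as a whole did. Stat2 was 65.4, 44.2, 56.5 and 82.1 CPM (ratio 1.45, 1.27 to 1.67), Irf7 was 19.1, 28.3, 17.7 and 26.2 CPM (ratio 1.48, 1.16 to 1.9), and Irf9 was 42.6, 45.9, 44.1 and 53.4 CPM (ratio 1.21, 1.03 to 1.43). For Irf7 the mouse with hashtag 8 lay above A20ZF7.

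Of the other antiviral effectors, Ifi44 was 5.14 CPM with hashtag 7, 0 with hashtag 8 (3 UMIs would be 5.3 CPM), 5.91 CPM in WT and 19.6 CPM in A20ZF7 fibroblast-like cells, a ratio of 3.32 (2.26 to 5). Rsad2 (viperin), which makes a chain-terminating nucleotide, was 4.41, 1.77, 4.66 and 11.9 CPM (ratio 2.55, 1.63 to 4.12). Both lay above the WT mice, on 145 and 88 UMIs in A20ZF7. Ifi27l2a was 2196, 2025, 2399 and 3122 CPM (ratio 1.3, 1.27 to 1.33) and Bst2 (tetherin), which holds budding virus at the cell surface, was 255, 267, 265 and 316 CPM (ratio 1.19, 1.12 to 1.27). Trim30a and Parp14 had ratios of 1.13 and 1.23, Samd9l 1.13 and Ifi35 1.02. Rtp4 was 54.7 CPM in WT and 54 CPM in A20ZF7, and Xaf1, a pro-apoptotic ISG, was lower in A20ZF7, at 53.6 CPM against 64.7 CPM (ratio 0.828, 0.716 to 0.958), with 40.6 CPM in the mouse with hashtag 8.

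Measured beside these results, the T cell share of fibroblast-like profiles was larger in A20ZF7, as given above. With the T cell profile of the same library subtracted in proportion to its markers, Iigp1 was 138 CPM in WT and 454 CPM in A20ZF7 (ratio 3.29). Igtp was 30.4 and 82.3 CPM (ratio 2.71) and Ifi47 54.7 and 118 CPM (ratio 2.15), and the GBPs and IRGs had a ratio of 2.09. The gate limits these markers in fibroblast-like cells, so the part subtracted can be too small. Ptprc was 90.7 CPM in WT and 300.5 CPM in A20ZF7 fibroblast-like cells, beside 909 and 895 CPM in T cells, a larger share than that of the markers. The subtraction thus does not show the ratios with all T cell transcripts removed. Fibroblast-like cells without any UMI of a T cell marker or Ptprc had a ratio of 2.33 (2.22 to 2.45) for the GBPs and IRGs. The ratio was 2.18 (2.09 to 2.29) in those with a UMI of Adamdec1, a protease gene of lamina propria fibroblasts, and 1.91 (1.74 to 2.1) in those without. The 9 members whose promoter held a GAS had a median ratio of 1.69 (range 1.02 to 2.72) in fibroblast-like cells, and the 20 members with a promoter sequence but no GAS had one of 1.33 (0.828 to 3.32). The 18 members with an ISRE core had a median of 1.44 and the 11 without one of 1.21, and the 6 with both elements one of 1.74. Of the 7 members at 2-fold, Igtp held both elements, Oas3 and Rsad2 an ISRE core alone and Ifi44 and Ifi47 neither, and no promoter was matched for Iigp1 and Gbp4.

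Shares of cells with a UMI were compared at equal depth. After each cell was thinned to 500 UMIs, a GBP or IRG UMI was found in 21.1% (20.02 to 22.3) of 5168 WT and 40.4% (39.2 to 41.5) of 7438 A20ZF7 fibroblast-like cells, with 5 and 182 shallower cells left out. Before thinning the shares were 36% and 58.1%. In T cells the thinned shares were 22.6% (21.3 to 24) and 24.1% (23.4 to 24.9). An Iigp1 UMI was found in 5.8% of thinned WT and 18.3% of thinned A20ZF7 fibroblast-like cells, and in 1.22% and 3.29% of thinned T cells (10.4% and 29.8%, and 2.41% and 6.27%, before thinning). In T cells the level of Iigp1 lay below that of the droplets under 50 UMIs. By immunoglobulin transcripts, the droplet profile made up 8.98% of WT and 27% of A20ZF7 T cell profiles. It made up 7.53% of WT and 27.7% of A20ZF7 fibroblast-like profiles. The droplet profile was not removed from the shares, and its part in the Iigp1 shares was not tested. Cells with UMIs of at least 3 different genes among Isg15, Usp18, Ifit, Oas, Rsad2 and Ifi44 were rare in both libraries, at 0.329% of thinned WT and 0.336% of thinned A20ZF7 fibroblast-like cells.

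**Figure D2:**
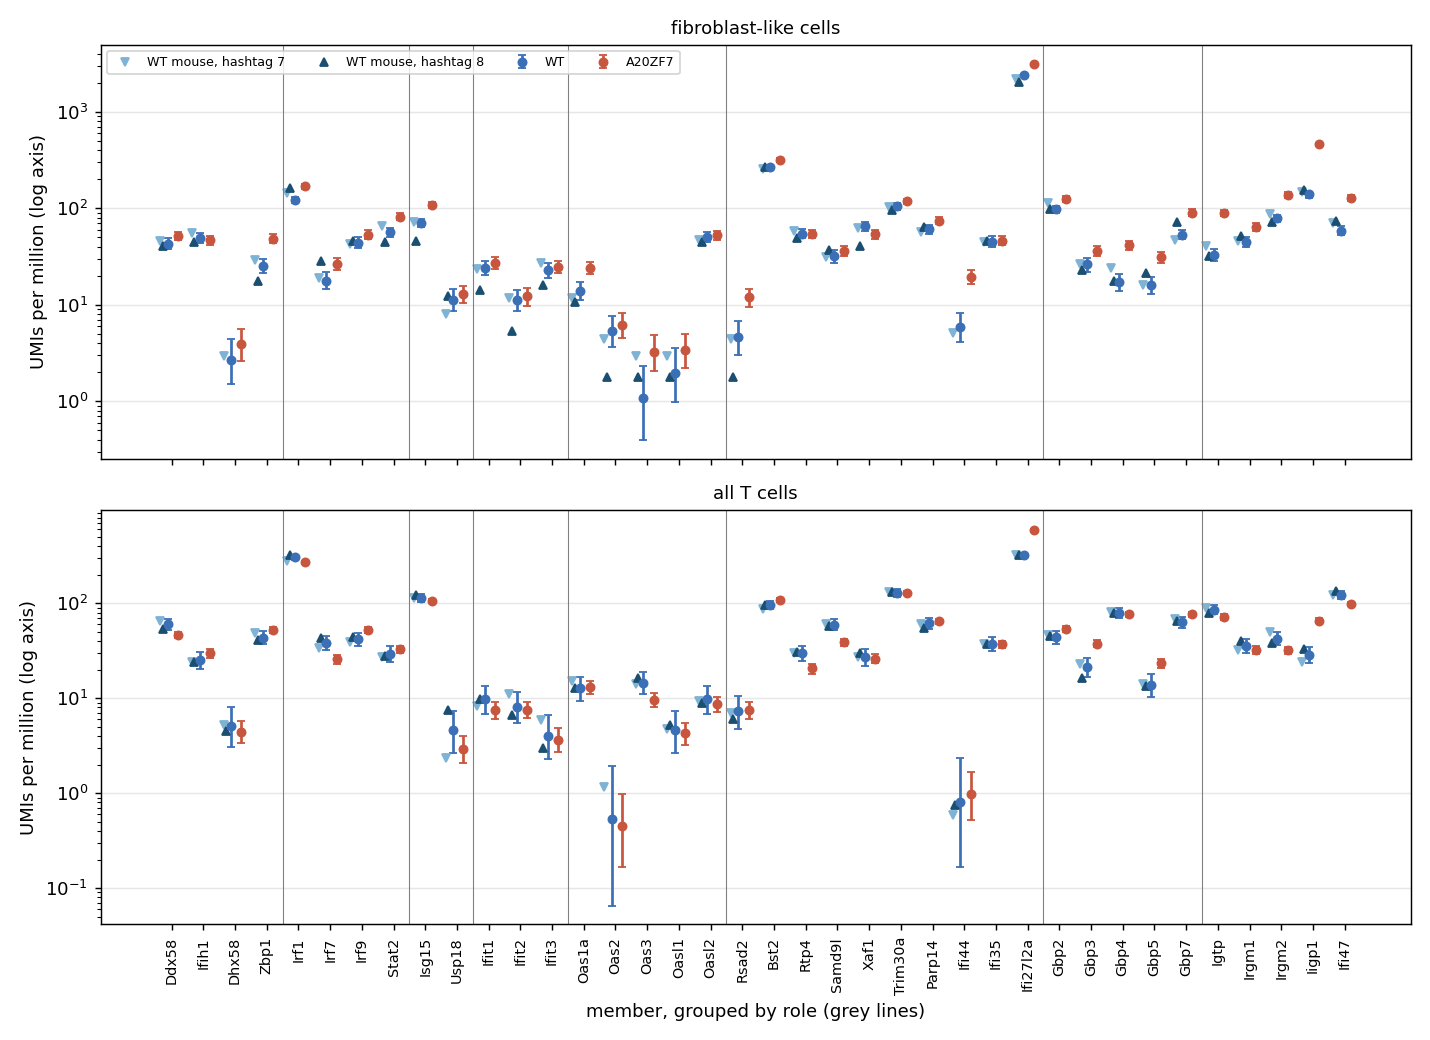
Level of each member (y axis, CPM on a log axis) in fibroblast-like cells (top) and all T cells (bottom), in the order of the roles. Circles are the libraries with 95% counting intervals and triangles the WT mice with hashtags 7 and 8, where a level of 0 is not drawn. In fibroblast-like cells A20ZF7 lies above both WT mice for every GBP and IRG, with Iigp1 at 460.2 against 148 and 156, and in T cells it lies below both mice for Ifi47 and Irgm2.

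T cells showed no common direction. Their summed level was 2040 CPM in WT, with 2026 and 2062 CPM in the WT mice, and 2276 CPM in A20ZF7, a ratio of 1.12 (1.09 to 1.14) that went to 0.978 (0.951 to 1.01) without Ifi27l2a. By immunoglobulin transcripts, the profile of droplets under 50 UMIs made up 8.98% of WT and 27% of A20ZF7 T cell profiles. With it subtracted and the UMI totals unreduced, the ratio over all members was 0.879. More was taken from A20ZF7, so this value is no evidence of a lower level there. Of 36 members that passed the filter, 15 had a ratio above 1 and 21 below, with a median of 0.951, against a median of 1.02 and a share above 1 of 53% over 11,043 genes. Ifi44 (3 and 13 UMIs) and Oas2 (2 and 6 UMIs) did not pass. A ratio of at least 2 was found for 1 member, Iigp1, against 5.28% of all genes, and none was at 0.5 or less, against 3.27%. With the droplet profile subtracted on the same scale, by the immunoglobulin estimate, the ratio of Iigp1 was 1.16, below 2-fold. Between the WT mice no member of 31 reached 2-fold in T cells, where 0.977% and 0.966% of 8803 genes did, and the ratios of hashtag 8 over hashtag 7 ran from 0.604 for Ifit2 to 1.37 for Iigp1.

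The members with the largest ratios in T cells were Iigp1, Ifi27l2a, Gbp3, Gbp5 and Irf9. Iigp1 was 24.1 CPM with hashtag 7, 32.9 CPM with hashtag 8, 28.9 CPM in WT and 65.7 CPM in A20ZF7 (ratio 2.28, 1.86 to 2.81), beside 63.5 and 144 CPM in the droplets under 50 UMIs. Ifi27l2a was 319.8, 319.6, 323 and 596 CPM (ratio 1.85, 1.74 to 1.96), beside 400.0 and 639 CPM in those droplets. Both genes were thus higher in the droplets than over all T cells of either library. Treg-like cells differed from this for Ifi27l2a. Their members summed to 2815 CPM in WT and 2787 CPM in A20ZF7 with it and to 1584 and 1891 CPM without it. Its level there lay above that of the droplets in both libraries. Gbp3 was 22.9, 16.5, 21.1 and 37.6 CPM (ratio 1.78, 1.4 to 2.29), Gbp5 was 14.1, 13.5, 13.8 and 23.5 CPM (ratio 1.7, 1.26 to 2.34), and Irf9 was 38.7, 44.2, 41.9 and 52.8 CPM (ratio 1.26, 1.06 to 1.51).

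The members with the smallest ratios in T cells were Usp18, Samd9l, Oas3, Irf7 and Rtp4. Samd9l, a translation repressor, was 60.4 CPM with hashtag 7, 57.6 CPM with hashtag 8, 59.4 CPM in WT and 38.8 CPM in A20ZF7 (ratio 0.652, 0.556 to 0.767). Irf7, the main amplifier of type I interferon, was 34, 42.7, 38.3 and 25.9 CPM (ratio 0.674, 0.553 to 0.826), Oas3 was 14.1, 16.5, 14.6 and 9.59 CPM (ratio 0.658, 0.475 to 0.922), and Rtp4 was 29.9, 30.7, 29.7 and 20.6 CPM (ratio 0.694, 0.554 to 0.874). A20ZF7 lay below both WT mice for these 4 genes. Usp18 was 4.59 CPM in WT and 2.92 CPM in A20ZF7 (ratio 0.637, 0.352 to 1.2). Among the IRGs, 3 that were higher in A20ZF7 fibroblast-like cells were lower over all T cells of A20ZF7, namely Ifi47 (122, 135, 123 and 98.6 CPM, ratio 0.8, 0.719 to 0.892), Igtp (89.2, 78.6, 85.9 and 71.6 CPM, ratio 0.834, 0.734 to 0.949) and Irgm2 (49.9, 38.2, 42.4 and 31.9 CPM, ratio 0.753, 0.626 to 0.91). Ratios over all T cells pool classes whose shares differ between the libraries. Th17-like cells held 343,591 of 3,703,367 T cell UMIs in WT and 4,814,096 of 13,341,377 in A20ZF7. By class, the IRGs together had a ratio of 0.946 (0.772 to 1.17) in Th17-like and 1.03 (0.943 to 1.12) in other T cells. Treg-like cells had 1.21 (0.789 to 1.96), CD8 T-like cells 0.793 (0.669 to 0.942) and gamma-delta T-like cells 0.855 (0.63 to 1.17). The part of the mix was not tested.

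Within each T cell class, before any subtraction, the summed level without Ifi27l2a had a ratio whose counting interval held 1. It was 1572 CPM in WT and 1563 CPM in A20ZF7 for Th17-like cells (ratio 0.995, 0.911 to 1.09), 1899 and 1815 CPM for CD8 T-like cells (0.955, 0.889 to 1.03), and 1882 and 1719 CPM for gamma-delta T-like cells (0.913, 0.801 to 1.04). Treg-like cells had 1584 and 1891 CPM (1.19, 0.997 to 1.44) and other T cells 1692 and 1700 CPM (1, 0.969 to 1.04). With the droplet profile subtracted and the UMI totals unreduced, levels were 1508 and 1132 CPM for Th17-like and 1815 and 1509 CPM for CD8 T-like cells. They were 1787 and 1470 CPM for gamma-delta T-like, 1556 and 1177 CPM for other T and 1496 and 1479 CPM for Treg-like cells. Over all T cells the ratio without Ifi27l2a was then 0.772. More was taken from A20ZF7, for Th17-like profiles 26.1% against 4.82% in WT, so these values are no evidence of lower levels in A20ZF7. The sum of Isg15, Usp18, the Ifit and Oas genes, Rsad2 and Ifi44 was lower in A20ZF7 CD8 T-like cells, at 208 against 291 CPM (0.715, 0.589 to 0.87). A UMI of Cd8a or Cd8b1 placed a T cell in this class ahead of the Th17-like class. The Th17 list there summed to 474 CPM in WT and 2056 CPM in A20ZF7, beside 1490 and 1100 CPM for the CD8 list. In Th17-like cells the same antiviral sum was 131 CPM in WT and 159 CPM in A20ZF7. Whether the CD8 T-like ratio compares like cells was not tested.

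**Figure D3:**
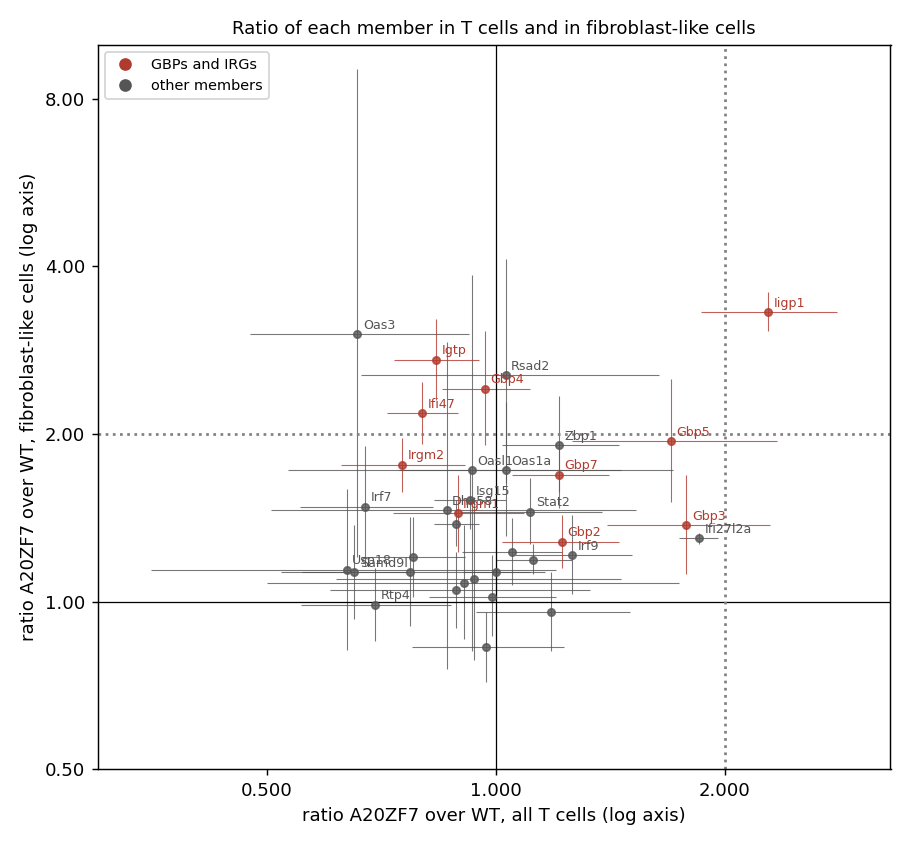
Ratio of A20ZF7 over WT of each member in all T cells (x axis) and in fibroblast-like cells (y axis), both on log axes, with 95% counting intervals as lines, GBPs and IRGs in red and the ratio of 2 dotted. Igtp, Ifi47 and Irgm2 lie left of 1 in T cells and above 1 in fibroblast-like cells, and Iigp1 is past 2 on both axes.

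ILCs had higher levels of part of the members in A20ZF7. Their sum went from 1545 to 2030 CPM (ratio 1.31, 1.24 to 1.4), and from 1502 to 1747 CPM (1.16, 1.09 to 1.24) without Ifi27l2a, with 1506 and 1546 CPM in the WT mice for all members. With the droplet profile subtracted and the UMI totals unreduced, the ratio over all members was 1.03. These values pool subsets whose shares differ: ILC2-like cells held 655,749 of 1,232,048 ILC UMIs in WT and 433,962 of 1,133,422 in A20ZF7. Before subtraction, the ratio without Ifi27l2a was 1.12 (1 to 1.24) in ILC2-like and 1.1 (1.01 to 1.19) in ILC3-like cells. In ILC1 or NK-like cells it was 1.23 (0.915 to 1.65). Of 28 members that passed over all ILCs, 4 had a ratio of at least 2, against 5.28% of 8749 genes, and none one of 0.5 or less, against 4.01%. Ifi27l2a was 43.8 CPM with hashtag 7, 67.2 CPM with hashtag 8, 43.8 CPM in WT and 283 CPM in A20ZF7 (ratio 6.46, 4.83 to 8.79), and Iigp1 was 31.9, 22.4, 28.4 and 112 CPM (ratio 3.94, 2.69 to 5.91). The levels of both genes lay below those of the droplets in WT (400.0 and 63.5 CPM) and in A20ZF7 (639 and 144 CPM). The ratio of Ifi27l2a ran from 2.7 with cells of several lineages kept to 10.3 with the droplet profile subtracted, where that of Iigp1 was 3.25. After subtraction, WT ILC2-like cells had 1169 CPM with and without Ifi27l2a, so the 10.3 rests on a small WT level. Stat2, a part of the type I complex, was 20.3 CPM in WT and 47.6 CPM in A20ZF7 (ratio 2.35, 1.44 to 3.94), Gbp5 13 and 28.2 CPM (2.17, 1.16 to 4.24) and Gbp3 13 and 22.9 CPM (1.77, 0.913 to 3.52). The smallest ratios were those of Samd9l (47.1 and 28.2 CPM, ratio 0.6), Irf7 (42.2 and 31.8 CPM, 0.753), Igtp (106 and 94.4 CPM, 0.895), Irgm1 (30.8 and 29.1 CPM, 0.944) and Irf9 (36.5 and 35.3 CPM, 0.966), of which the interval of Samd9l alone (0.377 to 0.939) stayed below 1. The Ifit genes together rested on 7 UMIs in WT and 21 in A20ZF7 ILCs (5.68 and 18.5 CPM).

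Smooth muscle-like cells resembled fibroblast-like cells in direction. Of 28 members that passed, all had a ratio above 1, with a median of 1.73 against 1.01 over 8593 genes, and 10 had one of at least 2, against 7.74% of all genes, while none was at 0.5 or less, against 2.66%. Iigp1 was 26.2 CPM in WT and 136 CPM in A20ZF7 (ratio 5.19, 3.69 to 7.38), with 53.4 and 19.9 CPM in the WT mice. Igtp was 16.3 and 54.7 CPM (ratio 3.35), Gbp4 10.9 and 32 CPM (2.94), Rtp4 11.4 and 30.7 CPM (2.7) and Ifit1 8.9 and 22.7 CPM (2.55). The lowest ratios were those of Ddx58 (33.6 and 36 CPM, ratio 1.07), Samd9l (32.1 and 38.7 CPM, 1.2), Ifi35 (37.6 and 46.7 CPM, 1.24), Bst2 (135 and 179 CPM, 1.32) and Ifih1 (21.8 and 29.3 CPM, 1.35). The WT cells that carried a hashtag call had higher levels than WT as a whole, with GBPs and IRGs at 361 and 372 CPM in the mice against 249.6 CPM, so their ratio of 2.35 went to 1.62 and 1.58 against either mouse alone, and the members at 2-fold from 10 to 3 and 1. Fibroblast markers summed to 2733 CPM in WT and 2930 CPM in A20ZF7 smooth muscle-like cells.

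Endothelial-like cells, which held the highest levels in WT, differed little. The summed ratio was 1.05 (0.982 to 1.13), and the GBPs and IRGs were 1856 CPM in WT and 2163 CPM in A20ZF7 (1.17, 1.04 to 1.31), with 1749 and 1912 CPM in the WT mice. Of 30 members that passed, 1 had a ratio of at least 2, against 9.16% of 5053 genes, and none was at 0.5 or less, against 5.05%. Stat2 was 50.5 and 127 CPM (ratio 2.51, 1.36 to 4.84), with 26.3 and 67.7 CPM in the WT mice, and its ratio was 4.82 against the mouse with hashtag 7, 1.87 against that with hashtag 8 and 1.21 with cells of several lineages kept. Ifi27l2a was 199 and 363 CPM (1.83, 1.33 to 2.54), Igtp 66.3 and 120.0 CPM (1.81, 1.02 to 3.27), Isg15 237 and 353 CPM (1.49, 1.1 to 2.04) and Irgm2 85.2 and 123 CPM (1.45, 0.855 to 2.48). Irf1 was lower in A20ZF7, at 651 against 940.4 CPM (0.692, 0.574 to 0.833), with 934 and 956 CPM in the WT mice. Rtp4 (107 and 61.7 CPM, ratio 0.575), Gbp3 (63.1 and 41.1 CPM, 0.652), Rsad2 (59.96 and 41.1 CPM, 0.686) and Irf9 (78.9 and 54.8 CPM, 0.695) had intervals that held 1. An Iigp1 UMI was found in 31% of thinned WT and 31.7% of thinned A20ZF7 endothelial-like cells (41.8% and 42% before thinning).

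In macrophage-like cells 7 members passed the filter, none with a ratio of at least 2, against 4.91% of 2242 genes, and 1 with a ratio of at most 0.5, against 3.93%. That member was Gbp3, at 121 CPM in WT and 59.9 CPM in A20ZF7 (ratio 0.495, 0.235 to 1.05). Bst2 was 401 and 208 CPM (0.519, 0.352 to 0.766), with 358 and 374 CPM in the WT mice, and Irf1 was 348 and 275 CPM (0.79, 0.542 to 1.16). Gbp7 (121 and 109 CPM), Trim30a (151 and 144 CPM) and Isg15 (144 and 190.2 CPM) differed within their intervals, and Ifi27l2a was 446 and 659 CPM (1.48, 1.1 to 2.01). The IRGs together, none of which passed alone, were 151 CPM on 20 UMIs in WT and 310.0 CPM on 88 UMIs in A20ZF7 macrophage-like cells (2.05, 1.25 to 3.52). In B or plasma-like cells 5 of 18 members had a ratio of at least 2 and none one of 0.5 or less, but 30.3% of 5107 genes were likewise 2-fold higher and 2.15% 2-fold lower there, with median ratios of 1.64 over the members and 1.6 over all genes. Igha was 173,629 CPM in WT and 165,079 CPM in A20ZF7 cells of this class, whose median depths were 2816 and 1389 UMIs. Scaled by the median ratio of all genes in the class, the summed ratio of 1.33 went to 0.831. The largest ratios were those of Gbp7 (6.17 and 26.8 CPM), Gbp2 (5.14 and 20.4 CPM), Iigp1 (8.22 and 31.9 CPM), Igtp (21.6 and 44.7 CPM) and Isg15 (18.5 and 37 CPM), and the smallest those of Bst2 (428 and 383 CPM), Ifi35 (15.4 and 15.3 CPM), Parp14 (22.6 and 25.5 CPM), Zbp1 (44.2 and 53.6 CPM) and Ddx58 (19.5 and 24.3 CPM).

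**Figure D4:**
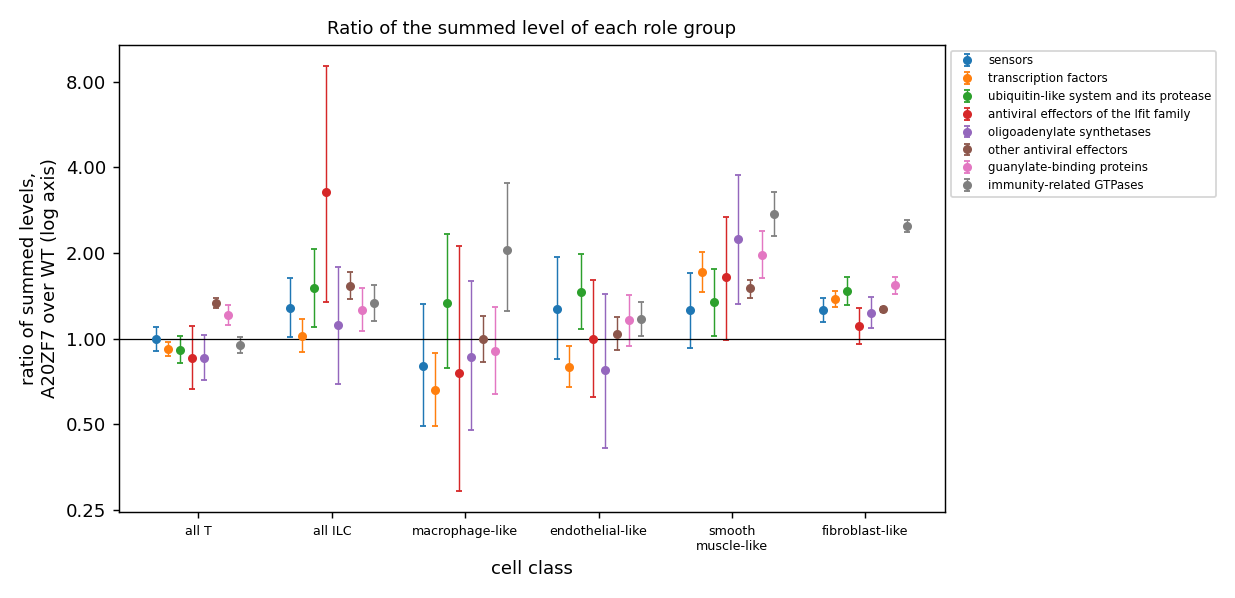
Ratio of A20ZF7 over WT (y axis, log) of the summed level of each role group, with 95% counting intervals, in 6 cell classes (x axis). The immunity-related GTPases are at 2.49 in fibroblast-like and 2.74 in smooth muscle-like cells and at 0.948 in T cells, while the Ifit genes of fibroblast-like cells are at 1.11.

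Over all gated cells, the levels mix the classes, whose shares differ between the libraries. Among sensors, Ddx58 was 43.8 CPM in WT and 47.4 CPM in A20ZF7, Ifih1 33.9 and 35.2 CPM, Dhx58 3.88 and 4.19 CPM, and Zbp1 30.7 and 49.8 CPM. Of the transcription factors, Irf1 was 201 and 238 CPM, Irf7 25.3 and 26 CPM, Irf9 38 and 50.4 CPM and Stat2 37.1 and 49.9 CPM. Isg15 was 83.2 and 107 CPM, while Usp18 was 7.24 and 6.05 CPM. Most of these were somewhat higher in A20ZF7, and Usp18 was not. Ifit1 was 16.5 and 14.9 CPM, Ifit2 8.16 and 9.12 CPM and Ifit3 11.8 and 10.4 CPM. Oas1a was 11.6 and 16.1 CPM, Oas2 2.57 and 2.32 CPM, Oas3 5.4 and 6.71 CPM, Oasl1 10.4 and 5.1 CPM and Oasl2 27.5 and 23.5 CPM. The Ifit and Oas genes thus went in both directions, with Oasl1 the lowest at a ratio of 0.49. Rsad2 was 7.24 and 9.61 CPM, Bst2 198 and 190.4 CPM, Rtp4 33.8 and 31 CPM, Samd9l 38.4 and 36.6 CPM and Xaf1 38.6 and 34.9 CPM. Trim30a was 97.6 and 123 CPM, Parp14 56.3 and 66.6 CPM, Ifi44 3.88 and 7.63 CPM, Ifi35 44.5 and 39.7 CPM and Ifi27l2a 1073 and 1352 CPM. Every GBP and IRG was higher in A20ZF7 over all gated cells. Gbp2 was 62.5 and 78.1 CPM, Gbp3 21.3 and 35.6 CPM, Gbp4 36.4 and 64.1 CPM, Gbp5 14.5 and 26.7 CPM and Gbp7 50.5 and 79.5 CPM. Igtp was 48.8 and 77 CPM, Irgm1 34.8 and 43 CPM, Irgm2 50.5 and 66.5 CPM, Iigp1 83.2 and 200.4 CPM and Ifi47 67.8 and 103 CPM.

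Upstream of the members, interferon-γ was the ligand with counts. Ifng was 122 CPM in WT T cells, with 137 and 122 CPM in the WT mice, and 87.7 CPM in A20ZF7 T cells (ratio 0.717, 0.643 to 0.801). It was 116 CPM in Th17-like cells of either library, and 33.3 and 39.7 CPM in ILCs. Over all T cells the level was thus lower in A20ZF7 than in either WT mouse. By class, Ifng was lower in CD8 T-like cells (137 and 88 CPM) and other T cells (127 and 65.5 CPM). It was higher in gamma-delta T-like cells (53 and 112 CPM, on 10 and 42 UMIs), and 50.3 and 63.3 CPM in Treg-like cells on 4 and 63 UMIs. The CD8 T-like cells of A20ZF7 carried more Th17 markers than those of WT, as given above. Over all gated cells, of which T cells are a larger share in A20ZF7, Ifng was 37.1 and 56.9 CPM (ratio 1.53, 1.39 to 1.7). In fibroblast-like cells Ifng was 7.53 and 15.8 CPM, beside the larger share of T cell transcripts in A20ZF7. Among Ifnb1, Ifna1, Ifna2, Ifna4, Ifna5, Ifne, Ifnk, Ifnz, Ifnl2 and Ifnl3, none passed the filter in T cells or in fibroblast-like cells, and the highest count was 4 UMIs of Ifnz in WT fibroblast-like cells. The receptor chain Ifngr1 was 636 CPM in WT and 483 CPM in A20ZF7 T cells (ratio 0.759, 0.724 to 0.796), and 305 and 411 CPM in fibroblast-like cells (1.35, 1.27 to 1.43). The other chains did not all follow it. In T cells the ratio was 1.6 (1.17 to 2.23) for Ifngr2, 1.3 (1.1 to 1.53) for Ifnar1 and 0.74 (0.647 to 0.847) for Ifnar2. In fibroblast-like cells it was 1.11 (0.89 to 1.39), 1.37 (1.15 to 1.63) and 1.13 (1.02 to 1.25) in the same order.

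Of 116 other interferon pathway genes listed, 110 were matched. In T cells 84 passed the filter, of which 1 was at least 2-fold higher and 3 at most 0.5, against 5.28% and 3.27% of all genes, with a median ratio of 0.973. The largest ratios were those of Ifitm1 (5.94 CPM in WT and 27.6 CPM in A20ZF7, ratio 4.64, 3.02 to 7.5), Irf4 (102 and 201 CPM, 1.98) and Ifitm3 (44 and 80.4 CPM, 1.83), and the smallest those of Tgtp1 (11.3 and 4.27 CPM, 0.377), Ifi213 (35.9 and 16.8 CPM, 0.468) and Ifi206 (82.4 and 41.2 CPM, 0.5). In fibroblast-like cells 95 passed, with a median ratio of 1.35, and 20 were at least 2-fold higher and 1 at most 0.5, against the 7.33% and 3.51% of all genes given above. Among the 20, Ifng, Irf4, Ms4a4b and Ms4a6b are genes of lymphocytes. In A20ZF7 they were 87.7, 201, 211 and 161 CPM in T cells and 15.8, 44.6, 54.2 and 46.8 CPM in fibroblast-like cells. The rest of the 20 were not sorted by cell type, so the count can hold further such genes. Irf4, Ms4a4b, Ms4a6b and the 3 genes that follow were named after their values were seen. Tap1, which helps to load peptide onto MHC class I, was 50.7 and 118 CPM in fibroblast-like cells, its regulator Nlrc5 26.5 and 73 CPM, and the chemokine Cxcl9 62.2 and 171 CPM, with 103 and 37.1 CPM of Cxcl9 in the WT mice.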

How the data were processed

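Each gene expression library was deposited as raw UMI counts for all barcodes, which the authors obtained from Cell Ranger (7.1 in their processing notes, 8.0.0 in the file headers) on mm10. The A20ZF7 antibody counts as deposited equal those of WT, so antibody counts and hashtags were used with WT alone. Computation used scipy 1.17.1, pandas 2.3.3 and numpy 2.4.6 under Python 3.11.15. Cells had at least 500 UMIs, 200 to 2500 genes and at most 15% mitochondrial counts. WT barcodes with both hashtags (HTODemux, quantile 0.99, Seurat 5.3.0, R 4.3.3) were removed (2830 of 28,874 with at least 200 genes); A20ZF7 doublets were not removable this way. Genes passed with at least 10 UMIs expected in the smaller library, and 2-fold means a ratio of at least 2 or at most 0.5. Intervals are exact Poisson for levels, exact conditional for ratios and exact binomial for shares, at 95%. No differential test was run, as each genotype is 1 library. Members, lists and rules were chosen with earlier results of these data known. Named were every member over all gated cells, the 5 largest and 5 smallest ratios within a class, and, of the pathway list, the 3 largest and 3 smallest in T cells and the ligands; further names were added after values were seen. The result for 1 gene of the pathway list is not reported here. The ratio script was checked on simulated data. Alternatives changed the cell limits, the scaling, the filter, the mixed cells, the depth, the droplet level, the hashtags and the WT mice; those added after the data had been seen took fibroblast subsets, left out Ifi27l2a or subtracted the T cell profile.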

Additional observations from a re-analysis of the deposited data

Results flagged for a closer look

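In 7 members the whole counting interval of the ratio lay below 1 in T cells and above 1 in fibroblast-like cells. The ratio of A20ZF7 over WT was 0.8 in T cells and 2.18 in fibroblast-like cells for Ifi47, 0.834 and 2.72 for Igtp, and 0.753 and 1.76 for Irgm2. It was 0.887 and 1.38 for Irf1, 0.674 and 1.48 for Irf7, 0.658 and 3.02 for Oas3, and 0.778 and 1.2 for Ddx58. In fibroblast-like cells the WT mouse with hashtag 8 lay above A20ZF7 for Irf7 (28.3 and 26.2 CPM). For Irf1 this mouse lay close to A20ZF7 (161 and 169 CPM), and Oas3 rested on 6 UMIs in WT. The T cell ratios pool T cell classes whose shares differ between the libraries. With 1 library per genotype the difference between T cells and fibroblast-like cells was not tested. No share of all genes with the same pattern is set beside the 7, so the count is not read as particular to the members.

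The surface protein of a member was measured outside the transcript counts. In WT endothelial-like cells the BST2 antibody took 2875 of every 1,000,000 antibody UMIs, above the isotype controls IgG1 (2359), IgG2a (2007) and IgG2b (933) in the same cells. In the other classes it took 1593 to 2547, below the IgG2a and above the IgG2b isotype in each. In B or plasma-like cells it was 2547 beside 2532 for IgG1. The isotype that matches the BST2 antibody is not stated here, so these values do not show whether the protein was present in those classes. Bst2 transcripts were also highest in endothelial-like cells of WT, at 445 CPM.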

How the results depend on the processing

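No paired analysis was possible because the mice of each genotype were pooled and each genotype has 1 library, so that the genotypes share fewer than 2 replicate numbers. Fibroblast-like cells kept a ratio above 1 under each alternative run, at 1.28 to 1.54 for all members and 1.91 to 2.33 for the GBPs and IRGs, with 5 to 8 members at 2-fold. Subtracting the level in droplets under 50 UMIs, with UMI totals unreduced, gave T cells 0.879 (GBPs and IRGs 0.834), Th17-like cells 0.883 and CD8 T-like cells 0.917. Other T cells had 0.869, gamma-delta T-like cells 0.974 and endothelial-like cells 0.983. ILC2-like cells had 0.91, ILC3-like cells 0.989 and ILCs without Ifi27l2a 0.954, and Treg-like cells went from 0.99 to 0.821. The subtraction left ILCs at 1.03 (GBPs and IRGs 1.08), macrophage-like cells at 0.784, fibroblast-like cells at 1.28 (1.96) and smooth muscle-like cells at 1.33 (1.9). In each class more was taken from A20ZF7 by the immunoglobulin estimate, so on this scale the ratios are lower than over the UMIs left. Values below 1 after this subtraction are therefore no evidence of a turn in direction. Keeping cells with markers of several lineages gave T cells 1.14 (1.12), ILCs 1.43, macrophage-like cells 1.1 (1 without Ifi27l2a), endothelial-like cells 0.928 without Ifi27l2a, and fibroblast-like cells 1.31 (1.93), and members at 2-fold were then 1 higher and 2 lower in macrophage-like and 2 higher and 1 lower in endothelial-like cells. Against the WT mouse with hashtag 7 or 8, fibroblast-like cells had 1.43 or 1.54 (GBPs and IRGs 1.94 or 1.95) and smooth muscle-like cells 1.42 or 1.24 (1.62 or 1.58), and CD8 T-like cells turned to 0.988 with hashtag 8. Members at least 2-fold higher were then 3 or 1 in smooth muscle-like cells, 3 or 2 in endothelial-like cells (1 lower with hashtag 8) and 2 in ILCs with hashtag 7, and none was 2-fold lower in macrophage-like cells with hashtag 7. A minimum of 1000 UMIs gave T cells 1.08 with 2 members at 2-fold, and fibroblast-like GBPs and IRGs 1.97. Thinning to 500 UMIs gave 2 members at 2-fold in T cells, 4 in smooth muscle-like and 3 in endothelial-like cells, and 0 lower in macrophage-like cells. Scaling by the median ratio gave fibroblast-like cells 1.45 and turned B or plasma-like cells to 0.831. A filter at 30 expected UMIs left 2 members in smooth muscle-like cells, 0 in endothelial-like and 0 lower in macrophage-like cells, and no filter gave 8 in ILCs, 4 higher and 9 lower in macrophage-like and 2 higher and 2 lower in endothelial-like cells, as these settings test fewer or more genes. Of the alternatives added after seeing the data, the T cell profile subtracted gave fibroblast-like cells 1.36 and smooth muscle-like cells 1.56. Fibroblast-like cells had 1.37 with Adamdec1, 1.5 without it (GBPs and IRGs 1.91) and 1.49 without T cell or Ptprc UMIs (2.33). Except for the filter settings and the scale of the subtraction, the cause of these shifts was not tested. Endothelial-like cells of WT and fibroblast-like cells of A20ZF7 had the highest summed level also with 1000 UMIs per cell and with droplets subtracted. Members under 10 expected UMIs could not be read at this depth, mainly in macrophage-like and B or plasma-like cells.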
